A study of Mus musculus with 4 samples.

Results

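A set of 9 genes of the vessel wall that take part in leukocyte traffic were followed through the cell types of the mouse gingiva: Sele, Selp, Icam1, Icam2, Pecam1, Madcam1, Ackr1, Lrg1 and Vwf. They were taken by symbol from the 31253 genes of 4 single-cell RNA count matrices. All 9 members had a UMI (a counted mRNA molecule) in both cHet libraries, and 8 of them did so in both cKO libraries, where Madcam1 had none. Gingiva had been taken from mice labelled Itga9-Lyz2-cHet or Itga9-Lyz2-cKO, names that refer to Itga9, the integrin alpha9 gene, and to Lyz2, a gene of myeloid cells, and no library was labelled wild type. Each genotype gave 1 control library and 1 library with experimental periodontitis (PD), in which a silk suture had been tied at an upper molar with application of Porphyromonas gingivalis and the tissue was taken after 14 days. The groups are called cHet control, cHet PD, cKO control and cKO PD, and values are given in that order unless stated. The labels give neither the age of the mice nor the number of animals behind a library, and name no treatment for the controls.

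Leukocytes leave the blood mainly through venules. Selectins on the endothelial surface catch and slow the passing cell, chemokines displayed on the vessel activate its integrins, and those integrins then hold on to immunoglobulin-type adhesion molecules before the cell crosses between or through endothelial cells. P-selectin and von Willebrand factor are stored in the Weibel-Palade granules of endothelium, whereas E-selectin is made mostly after stimulation by cytokines.

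The files held 6684 to 9331 cell barcodes a library, of which 6595 to 8967 cells were kept. Control and PD libraries differed in depth, with a median of 5292, 2934, 5076 and 2509 UMIs per barcode. No control barcode was below 1501 UMIs and no PD barcode below 500, so cells of low UMI counts were present in the PD files only. Between 223 and 293 barcodes of each library also occurred in another library. Since each group was 1 library, no difference between conditions could be tested against replicates, and the intervals given below are 95% intervals that cover counting error only. Genes are described as called higher or lower when they were at least 2-fold apart after 10 CPM had been added to each side, had at least 50 UMIs on one side and had an interval that excluded 1. CPM is the usual scaling of a gene's UMIs to the UMI total of its class in that library.

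Endothelial cells numbered 112, 655, 220 and 353. They were divided into venous, capillary, arterial and lymphatic cells by other genes, with the 9 members kept out of both the clustering and the markers. Venous cells numbered 52, 53, 146 and 100, and made up 46.4%, 8.09%, 66.4% and 28.3% of the endothelial cells. All 14 venous markers were detected in venous cells of every library, with Nr2f2, a transcription factor of vein identity, at 494, 591, 549 and 658 CPM. Their levels did not all hold between control and PD. Adgrg6 was at 189, 10.7, 181 and 14.0 CPM, from 2 and 3 UMIs in PD, and Cpe at 210, 85.9, 439 and 159 CPM. Ptgs1 and Ctsh were also below both controls in both PD libraries, whereas Bst1, Il1r1, Slco2a1 and Tspan7 were above them. The venous cells of the controls lay almost wholly in one sub-cluster (51 and 144 cells of the controls against 3 and 4 of PD), led by Itm2a and Mal, and those of PD in another (50 and 96 cells of PD against 1 and 2 of the controls), led by genes that included Ackr1, Sele and Selp although these had not entered the clustering. A difference between venous cells of control and PD and a difference between those sub-clusters cannot be told apart. Capillary cells (35, 236, 37 and 88) were likewise split between a control and a PD sub-cluster. Arterial cells numbered 11, 38, 32 and 66, and lymphatic cells 9, 35, 0 and 3. A further 3 endothelial clusters, almost all from PD, carried no subtype name and had as leading genes Apln, Cxcr4 and Esm1 in one, Ifit1 and Cd36 in another, and Akap12 and Rsad2 in the last.

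The promoters of both selectin genes and of Icam1 are shown because these adhesion molecules were called higher in PD in both genotypes, the selectins in venous cells and Icam1 in capillary cells. Each sequence is the 250 bases before the RefSeq start on GRCm38.p6 (mm10), on the + strand, with capitals marking matches to the motifs GGNNNTTCC (the kappaB type), TGACNTCA (the ATF type), TTCNNNGAA (the STAT type) and TATAAA, searched on both strands. Sele, which encodes E-selectin, has its window at chr1:164047984-164048233, Selp, which encodes P-selectin, at chr1:164115014-164115263, and Icam1, the ligand of leukocyte beta2 integrins, at chr9:21015690-21015939.
Sele: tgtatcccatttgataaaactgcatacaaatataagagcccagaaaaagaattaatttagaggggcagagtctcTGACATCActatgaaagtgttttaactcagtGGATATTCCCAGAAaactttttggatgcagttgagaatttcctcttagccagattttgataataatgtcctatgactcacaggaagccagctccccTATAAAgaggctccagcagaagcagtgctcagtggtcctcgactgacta
Selp: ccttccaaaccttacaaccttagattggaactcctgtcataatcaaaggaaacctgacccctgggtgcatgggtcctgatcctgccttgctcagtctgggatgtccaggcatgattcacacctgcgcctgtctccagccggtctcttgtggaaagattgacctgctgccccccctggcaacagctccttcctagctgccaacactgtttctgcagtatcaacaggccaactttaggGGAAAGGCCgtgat
Icam1: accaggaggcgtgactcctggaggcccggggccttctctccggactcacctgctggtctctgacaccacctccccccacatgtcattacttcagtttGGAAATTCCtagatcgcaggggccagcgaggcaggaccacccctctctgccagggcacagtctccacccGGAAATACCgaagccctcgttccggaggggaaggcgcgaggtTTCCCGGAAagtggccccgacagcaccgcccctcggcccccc
The Sele window held TGACATCA 176 bases, GGATATTCC 145 bases, TTCCCAGAA 140 bases and TATAAA 49 bases upstream of the start, and the GGATATTCC and TTCCCAGAA matches overlap. The Icam1 window held GGAAATTCC 153 bases upstream, GGAAATACC 84 bases upstream on the other strand and TTCCCGGAA 42 bases upstream. The Selp window held 1 match, GGAAAGGCC, 14 bases upstream on the other strand. Among 32851 promoter windows of the same length, 15.7% held the kappaB-type motif, 7.49% the ATF type, 7.02% the STAT type and 12.4% TATAAA. The windows of members not shown also held the kappaB type, with 1 match in Ackr1, 1 in Lrg1 and 2 in Madcam1. Of these, Ackr1 was called higher in venous cells of PD, Lrg1 was called lower, and Madcam1 had no UMI in endothelium. The motif was thus not particular to the genes that were higher in PD. The motifs were chosen after these sequences had been seen, and a match describes letters, not binding.

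The mRNAs of E-selectin and P-selectin, the receptors that start leukocyte rolling, were at their highest CPM in venous cells among the named subtypes in all 4 libraries. They were higher in venous cells of PD than of control in both genotypes. Sele (mm10 chr1:164048234-164057677, + strand, 14 exons) was at 553 CPM (476 to 638) in venous cells of cHet control, 1621 (1444 to 1815) in cHet PD, 339 (303 to 379) in cKO control and 1880 (1701 to 2073) in cKO PD. Both PD libraries lay above both controls. The counts were unevenly spread, which these intervals do not cover. In each library 1 venous cell held 24.6%, 14.9%, 9.72% and 5.71% of the venous Sele UMIs, and the median venous cell held 0, 2, 0 and 2. The PD to control ratio was 2.93 (2.44 to 3.54) in cHet and 5.54 (4.77 to 6.44) in cKO. Both were called higher, where 9.33% (cHet) and 4.68% (cKO) of all tested genes were. In cHet this ratio depended on how venous cells were defined: over endothelial cells holding an Nr2f2 UMI (50, 126, 104 and 90 cells, lymphatic cells left out), a set chosen after seeing the data, the log2 difference was 0.13 (-0.12 to 0.39), where it was 1.54 over the venous sub-clusters.

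Selp (mm10 chr1:164115264-164150026, + strand, 16 exons) was at 2255 CPM (2098 to 2421), 10330 (9874 to 10802), 1937 (1850 to 2029) and 7321 (6963 to 7692) in venous cells. Both PD libraries were again above both controls. The ratios of 4.58 (4.21 to 4.99) in cHet and 3.78 (3.53 to 4.04) in cKO were both called higher. Over Nr2f2-holding cells the log2 differences were 1.08 and 1.08, where the venous sub-clusters gave 2.19 and 1.91. Part of these counts came from single cells: 1 venous cell held 26.2% of the venous Selp UMIs in cHet control, and the corresponding shares were 12.5%, 17.4% and 14.0% in the other libraries. The median venous cell held 3, 14, 2 and 8 Selp UMIs, so the middle of the distribution was higher in PD too, despite the lower depth of the PD cells. The antisense genes Gm16587 and Gm16548 overlap Selp, and held 0 and at most 5.91 CPM in venous cells.

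**Figure D1:**
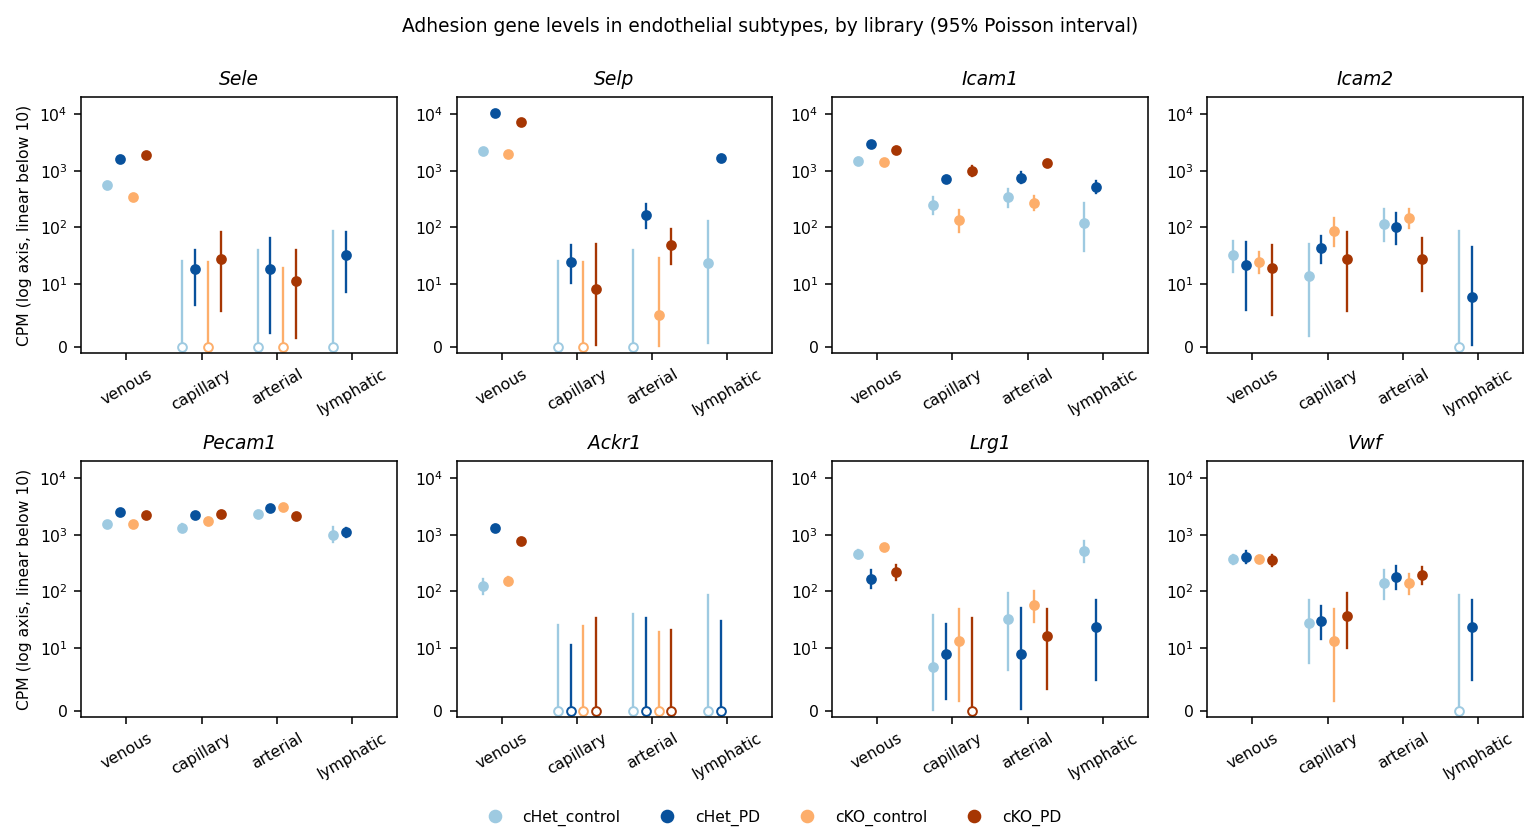
CPM of 8 of the genes (log-type axis, linear below 10 CPM) in venous, capillary, arterial and lymphatic endothelium of each library, with bars for the 95% Poisson interval, open circles for 0 UMIs, and no point where a library had fewer than 9 cells. Sele, Selp and Ackr1 were at their highest in the venous cells of PD, and Pecam1 was present in venous, capillary and arterial cells of all 4 libraries.

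More venous cells held selectin mRNA in PD when depth was made equal. Before thinning, Sele was detected in 44.2%, 62.3%, 37.7% and 63.0% of venous cells. With every cell thinned to 1000 UMIs, which left 52, 47, 146 and 81 venous cells, the shares were 23.1%, 55.3%, 17.1% and 56.8%. Selp gave 65.4%, 77.4%, 63.7% and 75.0% before and 40.4%, 78.7%, 43.2% and 71.6% after thinning. Epithelial cells, which should lack both genes, held Sele in at most 0.206% and Selp in at most 1.44% of cells, so the venous shares were far above that background. Of venous cells with a Sele UMI, 91.3%, 100%, 92.7% and 96.8% also held Selp.

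**Figure D2:**
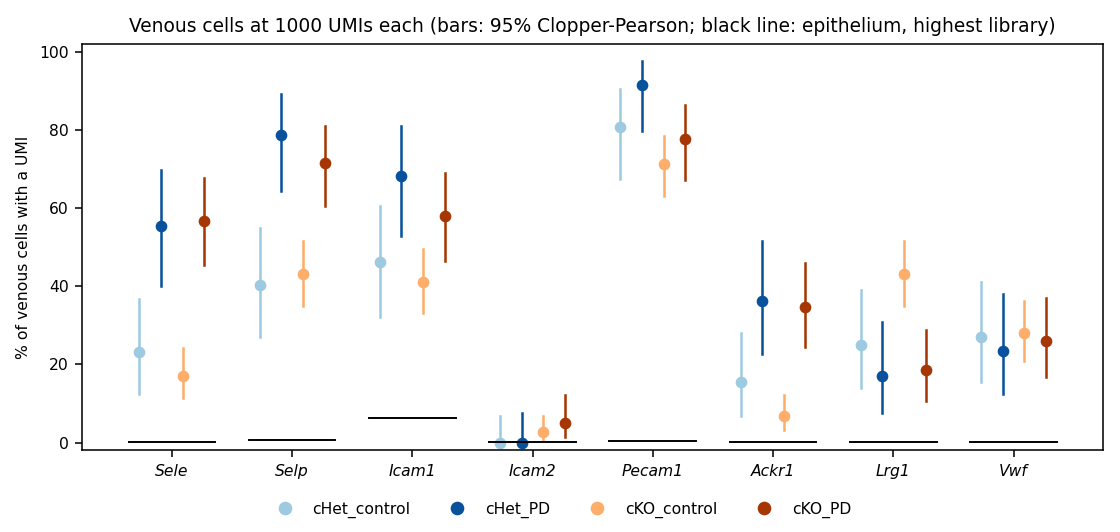
Percentage of venous cells with a UMI of each gene after thinning every cell to 1000 UMIs, by library, with the black line at the highest epithelial share in any library. For Sele, Selp and Ackr1 both PD libraries lie above both controls, while Vwf lies between 23.4% and 28.1% in all 4.

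Outside the venous cells the selectins were near their floor in control capillaries. Capillary cells had 0 UMIs of Sele in both controls and 18.1 CPM (6 UMIs) in cHet PD and 27.7 CPM (3 UMIs) in cKO PD. For Selp the capillary values were 0, 24.2, 0 and 9.23 CPM. Against a floor of 3 counts in the capillary cells of a library, venous cells of cHet control were at least 26.5-fold higher for Sele and at least 108-fold higher for Selp, and those of cKO control at least 97.5-fold higher for Selp. Arterial Selp was 0, 163, 5.11 and 49.5 CPM, on few cells. In the lymphatic cells of cHet, Selp was at 23.4 CPM (1 UMI) in 9 control cells and 1649 CPM in 35 PD cells. These 208 PD UMIs lay in 7 of the 35 cells. No lymphatic cell was found in cKO control.

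In PD, much of the selectin mRNA lay outside the named venous cells. Venous cells held 93.0% and 92.7% of all Sele UMIs in the control libraries, and 53.2% and 63.3% in cHet PD and cKO PD. For Selp the venous share was 93.2% and 94.1% in the controls and 42.6% and 52.7% in PD. The cluster with Apln, Cxcr4 and Esm1, genes of sprouting vessels, among its leading genes took up part of the difference. Its 84 cells in cHet PD and 54 in cKO PD were at 302 and 493 CPM for Sele and 3106 and 2346 CPM for Selp, and 53.6% and 46.3% of them held Selp. In the cluster led by Ifit1 and Cd36 Sele was at 29.2 and 0 CPM and Selp at 278 and 80.0 CPM. The cluster led by Akap12 and Rsad2 was at 96.6 and 88.3 CPM for Sele and 945 and 29.4 CPM for Selp, with Selp in 10 of 99 cells of cHet PD and 1 of 25 of cKO PD.

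**Figure D3:**
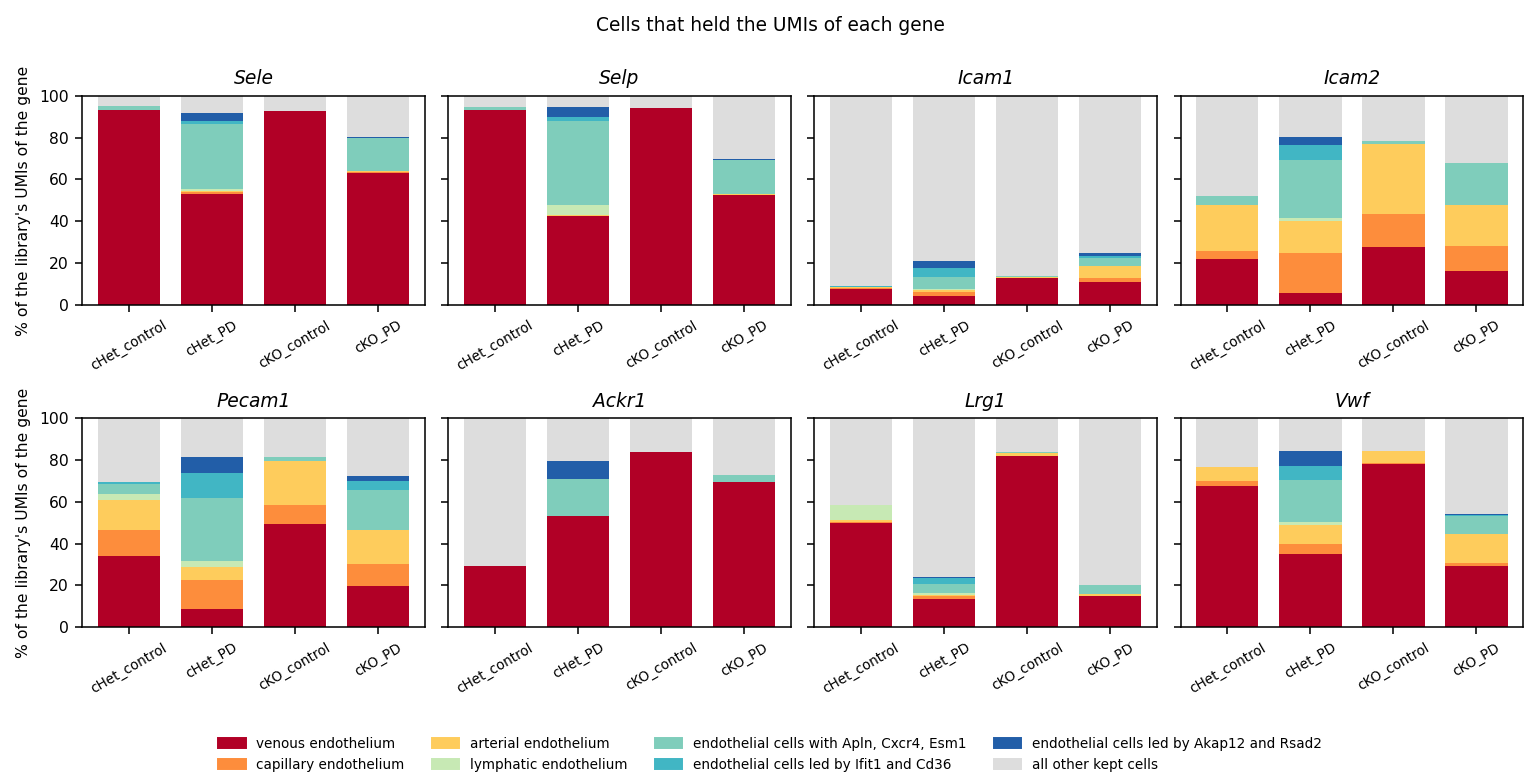
Percentage of each library's UMIs of a gene that lay in each endothelial subtype or unnamed endothelial cluster (stacked bars), with all other kept cells in grey. In the controls nearly all Sele and Selp UMIs were venous, in PD unnamed endothelial clusters hold a visible part, and most Icam1 UMIs lie outside the endothelium in all 4 libraries.

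Over all endothelial cells, which mix these subtypes in proportions that differed between libraries, the selectins gave another picture. Sele was at 294, 282, 243 and 649 CPM, so cHet PD was level with its control (log2 difference -0.06) while cKO PD was 2.68-fold (2.32 to 3.09) above its own and 2.30-fold (2.04 to 2.61) above cHet PD. The cHet log2 difference ran from -0.10 to 1.81 over alternative settings. Sele was called higher in cHet PD without cells holding Ptprc, Krt5, Krt14 or Col1a1. Venous cells made up 8.09% of endothelial cells in cHet PD and 28.3% in cKO PD. Within venous cells the ratio of cKO PD to cHet PD was 1.16 (0.996 to 1.35) for Sele, and it was not called. Selp over all endothelium was at 1193, 2311, 1386 and 2620 CPM, with log2 differences of 0.95 and 0.91 that fell short of the call in both genotypes. Both genotypes gained this call on thinned counts, with mixed sub-clusters kept in and without cells holding Ptprc, Krt5, Krt14 or Col1a1. The cHet comparison gained it also with TMM scaling, a common UMI floor and clusters drawn at resolution 2 over all cells. In venous cells Selp was lower in cKO PD than in cHet PD, at a ratio of 0.709 (0.663 to 0.758), short of the call.

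Icam1, the adhesion molecule that leukocyte integrins bind for firm arrest, was present in every endothelial subtype and higher in PD outside the veins as well. Icam1 (mm10 chr9:21015985-21028817, + strand, 7 exons, close to Icam4 and Icam5) was at 243, 707, 133 and 987 CPM in capillary cells. The PD to control ratios of 2.90 (2.03 to 4.27) and 7.45 (4.59 to 12.7) were called higher. Icam1 was the only member called in capillaries, of 2 with enough UMIs to be tested in each genotype, beside 15.7% (cHet) and 11.4% (cKO) of all tested genes called higher there.

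In arterial cells Icam1 was at 338, 750, 271 and 1370 CPM. The cKO ratio of 5.06 (3.75 to 6.94) was called, where 16.2% of all tested genes were called higher. The cHet arterial comparison was not made, since cHet control had 11 arterial cells and at least 20 were required. Venous Icam1 was at 1507, 2937, 1438 and 2361 CPM, with PD to control ratios of 1.95 (1.72 to 2.20) and 1.64 (1.48 to 1.82), neither called. Venous cells stood above capillary cells in every library, by 6.20-fold, 4.16-fold, 10.9-fold and 2.39-fold, and the gap was smaller in PD.

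The unnamed PD clusters also carried Icam1. The cluster led by Ifit1 and Cd36 was at 1951 CPM in cHet PD and 1548 CPM in cKO PD, and that led by Akap12 and Rsad2 at 1801 and 1501 CPM. Over all endothelial cells the values were 952, 1410, 1106 and 1463 CPM, below a 2-fold difference in each comparison.

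Unlike the selectins, Icam1 was widely shared with other cells, and endothelium held 9.01%, 21.1%, 13.7% and 24.6% of its UMIs in the libraries. Gland epithelium, present in the controls only, was at 1042 CPM in cHet control and 672 CPM in cKO control. Dendritic cells were at 477, 514, 514 and 400 CPM, macrophages at 330, 386, 435 and 271 and T and natural killer cells at 249, 337, 369 and 263, levels within 2-fold of each other between control and PD. Epithelium, the largest class, was at 43.0, 63.8, 61.7 and 66.3 CPM.

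The cKO PD library was lower than cHet PD for Icam1 in neutrophils and fibroblasts. Neutrophil values were 135, 445, 268 and 80.6 CPM, a 5.52-fold lower level in cKO PD than in cHet PD (4.39 to 6.99), where 13.9% of tested genes were called lower. Fibroblast values were 230, 379, 208 and 122 CPM, 3.10-fold lower in cKO PD than in cHet PD (2.35 to 4.16), where 9.46% were called lower. In endothelium the same pair differed by subtype, with cKO PD lower in venous cells (ratio 0.804, 0.711 to 0.909) and higher in capillary cells (1.398, 1.10 to 1.76) and arterial cells (1.83, 1.42 to 2.37), none of them called.

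**Figure D4:**
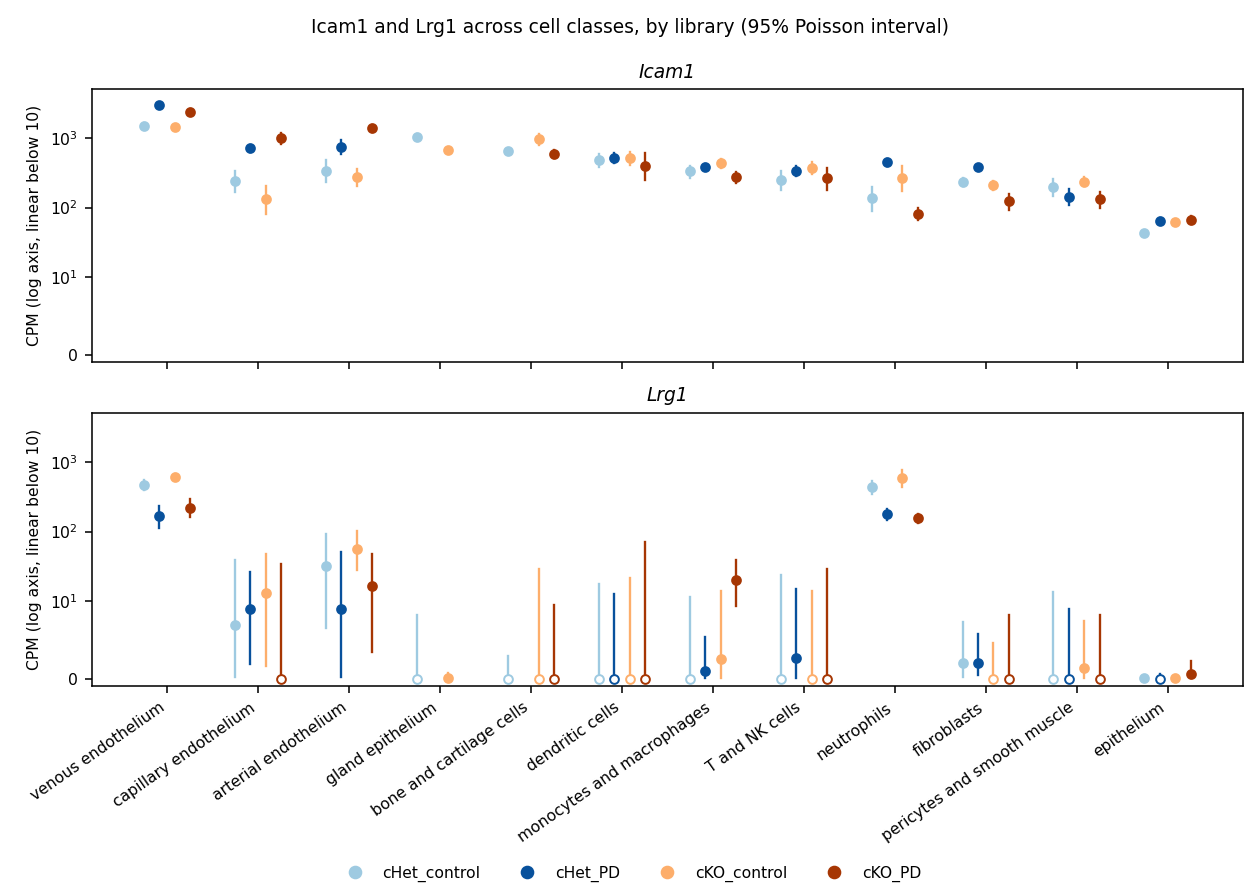
CPM of Icam1 and Lrg1 in 12 cell classes of each library, with 95% Poisson intervals. Icam1 is spread over endothelium, gland epithelium, bone and cartilage cells and myeloid cells, and Lrg1 is highest in endothelium and neutrophils.

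Icam2, another integrin ligand, which resting endothelium carries, was thinly counted. It was at 39.97, 31.3, 49.4 and 21.5 CPM over all endothelial cells, from 26, 58, 65 and 17 UMIs. Arterial cells stood highest in 3 libraries, at 116, 99.4, 143 and 27.5 CPM, against 32.5, 21.5, 24.5 and 18.7 CPM in venous cells. In cKO control the venous to arterial ratio was 0.171 (0.0940 to 0.308). Venous PD to control ratios were 0.661 (0.153 to 2.23) and 0.763 (0.192 to 2.23), intervals too wide to place the venous value. In cKO, PD was below control in arterial cells (ratio 0.192, 0.0579 to 0.504, from 5 and 28 UMIs) and over all endothelial cells (0.435, 0.239 to 0.751), neither called, while cHet gave 0.783 (0.485 to 1.296) over all endothelial cells.

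Pecam1, which encodes CD31 at endothelial junctions, was present in all blood vessel subtypes, with arterial cells above the others in some libraries. Over all endothelial cells it was at 1637, 2296, 1790 and 2187 CPM. Venous values were 1543, 2475, 1523 and 2202 CPM, capillary values 1334, 2195, 1716 and 2279, and arterial values 2334, 2936, 3140 and 2129. In cKO control the venous to arterial ratio was 0.485 (0.441 to 0.534) and the capillary to arterial ratio 0.547 (0.471 to 0.633), while in cKO PD the venous to arterial ratio was 1.03 (0.902 to 1.19). PD was above control in venous cells by 1.60-fold (1.41 to 1.82) and 1.45-fold (1.301 to 1.606), short of the call. Pericytes, which should lack Pecam1, held 0, 56.1, 125 and 13.3 CPM from 0, 23, 94 and 6 UMIs, called higher in cKO control than in cHet control (3.26% of genes called higher) and lower in cKO PD than in cKO control (11% called lower), values that were low beside those of endothelium. These UMIs lay in few cells: 6 of 118 pericytes in cHet PD, 6 of 118 in cKO control and 3 of 175 in cKO PD. After thinning, Pecam1 was detected in 80.8%, 91.5%, 71.2% and 77.8% of venous cells.

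Madcam1, the mucosal addressin that directs lymphocytes to gut venules, had no UMI in endothelial cells of any library. Its totals in the whole libraries were 3, 2, 0 and 0 UMIs. The 0 counts in endothelium allow up to 4.61, 1.62, 2.28 and 3.797 CPM (3 counts of the total), so a lower level could not be detected.

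Ackr1 encodes the atypical chemokine receptor of venules, which binds and carries chemokines without signalling. In venous cells it was at 124 CPM (89.5 to 168), 1305 (1146 to 1479), 154 (130 to 182) and 761 (648 to 887). Both PD libraries were above both controls, by 10.5-fold (7.55 to 14.95) in cHet and 4.93-fold (3.92 to 6.21) in cKO, and both were called. On thinned counts the cHet log2 difference of 3.29 was 1.80 and had too few UMIs for a call, and over Nr2f2-holding cells the log2 differences were 2.02 and 1.34. Detection at 1000 UMIs was in 15.4%, 36.2%, 6.85% and 34.6% of venous cells. Within PD, cKO was 1.72-fold lower than cHet in venous cells (ratio 0.583, 0.475 to 0.714), short of the call, while the control pair gave 1.24 (0.876 to 1.80).

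No capillary cell held an Ackr1 UMI in any library, and venous cells of cHet PD were at least 144-fold above the capillary floor of 3 counts. Over all endothelial cells Ackr1 was at 64.6, 196, 110 and 216 CPM. The cHet ratio of 3.04 (2.21 to 4.29) was called, and the cKO log2 difference of 0.91 was not. The cHet call was lost on thinned counts, where the log2 difference was -0.14 (-1.04 to 0.85), and without cells holding Ptprc, Krt5, Krt14 or Col1a1, where it was 0.49 (-0.14 to 1.26).

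Ackr1 counts were also seen in fibroblasts, mostly of the cHet libraries. Fibroblasts were at 97.6, 40.2, 16.1 and 8.91 CPM, from 97, 61, 13 and 4 UMIs. The value was called lower in cHet PD than in cHet control (2.43-fold, 1.75 to 3.40; 10.8% of tested genes called lower), in cKO PD than in cHet PD (4.51-fold, 1.67 to 17.1) and in cKO control than in cHet control (6.07-fold, 3.39 to 11.8; 6.59% called lower). Ackr1 (mm10 chr1:173331886-173333750, - strand) overlaps Cadm3, a cell adhesion gene on the same strand, so reads of the pair can be assigned to either gene. Cadm3 in fibroblasts was at 154, 28.3, 18.5 and 6.68 CPM, high and low in the same libraries, and its part in the fibroblast Ackr1 values was not tested. In venous cells Cadm3 was at 5.91, 26.8, 28.7 and 46.7 CPM, and it had no UMI in capillary, arterial or lymphatic cells.

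Lrg1, a secreted leucine-rich glycoprotein of venules and neutrophils that acts on vessel growth, was the one member called lower in venous cells of PD. It was at 464, 166, 608 and 219 CPM there, with both PD libraries below both controls. The fold was 2.79 lower in cHet (ratio 0.359, 0.236 to 0.530) and 2.77 lower in cKO (ratio 0.361, 0.262 to 0.486), and both were called. Detection was in 69.2%, 32.1%, 68.5% and 25.0% of venous cells, and in 25.0%, 17.0%, 43.2% and 18.5% at 1000 UMIs. The cHet call was lost on thinned counts, where the log2 difference was -1.04 (-2.39 to 0.11).

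Over all endothelial cells Lrg1 was at 281, 29.7, 445 and 82.3 CPM, 9.48-fold lower in cHet PD and 5.41-fold lower in cKO PD than in the controls. The thinned log2 difference in cHet was -2.45, from too few UMIs for a call, and with clusters drawn at resolution 2 over all cells, an endothelium almost without venous cells, it was -0.10. These folds exceed the venous ones, and venous cells were also a smaller share of endothelium in PD. Capillary Lrg1 was 6.95, 9.06, 13.3 and 0 CPM, near the floor. The cKO PD value was 2.77-fold (1.91 to 4.04) above cHet PD over all endothelium, where venous cells gave 1.32 (0.820 to 2.15). Neutrophils were at 430, 177, 578 and 155 CPM, also lower in PD, on 35 and 22 control neutrophils.

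Vwf, the clotting glycoprotein that shares storage granules with P-selectin, was level in the venous sub-clusters. It was at 369, 403, 377 and 350 CPM, and the PD to control ratios were 1.09 (0.807 to 1.46) and 0.929 (0.714 to 1.195). Over Nr2f2-holding cells, in contrast, PD was lower, with log2 differences of -1.08 (-1.50 to -0.74) in cHet, which was called, and -0.56 (-0.97 to -0.20) in cKO. Detection at 1000 UMIs was in 26.9%, 23.4%, 28.1% and 25.9% of venous cells. Arterial Vwf was 137, 181, 138 and 193 CPM and capillary Vwf 27.8, 30.2, 13.3 and 36.9 CPM, so the order venous, arterial, capillary was the same in each library. Over all endothelium Vwf was at 218, 97.2, 291 and 176 CPM and was called 2.25-fold lower in cHet PD, although none of the 3 main subtypes of cHet PD was below its control. That value lay close to the 2-fold limit, and the call was lost with TMM scaling (log2 -0.98), a common UMI floor (-0.98), the stricter mitochondrial filter (-0.92), mixed sub-clusters kept in (-0.95), thinning (-1.11, too few UMIs) and resolution 2 (-0.02).

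**Figure D5:**
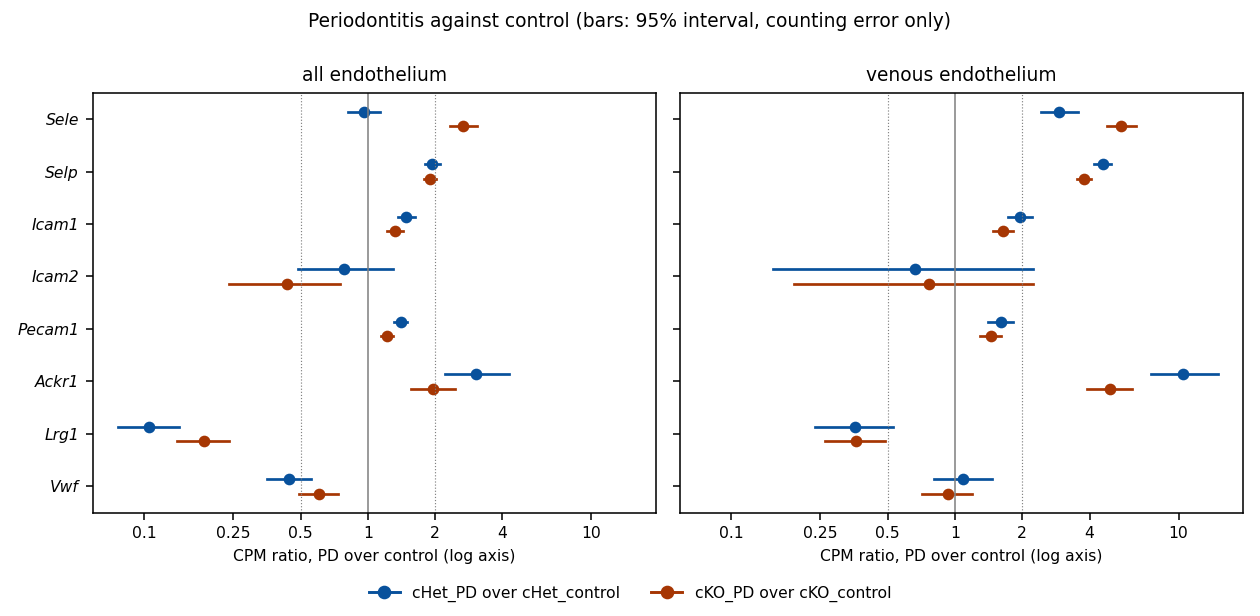
PD to control ratios of CPM for each gene on a log axis, over all endothelial cells (left) and in venous cells (right), with 95% intervals and dotted lines at 2-fold. Sele, Selp and Ackr1 lie beyond 2-fold above and Lrg1 below in venous cells of both genotypes, while over all endothelium Sele is level in cHet.

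Counted together, 3 of the 7 members tested in venous cells were called higher in PD in each genotype (Sele, Selp and Ackr1) and 1 lower (Lrg1). Of all genes tested in venous cells, 9.33% were called higher and 14.8% lower in cHet, and 4.68% and 10.5% in cKO. The median log2 difference of the tested members was 0.96 in cHet and 0.71 in cKO, beside -0.09 and -0.02 for all tested genes. Over all endothelial cells 8 members were tested, of which 1 was called higher (Ackr1) and 2 lower (Lrg1 and Vwf) in cHet, where 9.45% of all genes were called higher and 5.47% lower, and 1 higher (Sele) and 1 lower (Lrg1) in cKO, where the shares were 5.46% and 8.23%.

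Between the genotypes, no member was called in venous cells, either in PD (0.863% of genes called higher, 1.36% lower) or in the controls (1.65% and 0.177%). In the controls, venous Sele was lower in cKO at a ratio of 0.614 (0.511 to 0.740) and Lrg1 was higher at 1.31 (1.10 to 1.57), both short of the call. Over all endothelium, Sele and Lrg1 were called higher in cKO PD than in cHet PD, where 0.704% of genes were called higher and 2.09% lower, and the share of venous cells differed between those libraries as given above. At resolution 2 both directions turned (log2 -1.24 for Sele and -0.15 for Lrg1, too few UMIs for a call), and the Lrg1 call was lost for too few UMIs on thinned counts and without cells holding Ptprc, Krt5, Krt14 or Col1a1. The control pair had no member called over all endothelium, beside 0.83% of genes higher and 0.359% lower. The PD response of cKO minus that of cHet in venous cells was 0.90 on the log2 scale for Sele and -1.06 for Ackr1, differences for which 1 library per group allows no test.

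Markers of other cells were measured in the same venous cells. The pericyte gene Rgs5 was at 532, 37.6, 579 and 28.0 CPM, higher in the controls, and 12 pericyte markers summed to 1097, 156, 1445 and 355 CPM with 10, 5, 11 and 6 of them detected. Without the venous cells that held Rgs5, the log2 differences of PD from control were 1.27 and 2.35 for Sele, 1.91 and 1.93 for Selp, 3.19 and 2.06 for Ackr1 and -1.52 and -1.60 for Lrg1, in cHet and cKO. Summed epithelial markers were at 2480, 2421, 3063 and 1857 CPM, neutrophil markers at 192, 129, 98.9 and 303, red cell markers at 14.8, 779, 1.06 and 14.0, and gland markers at 23.6, 0, 679 and 4.67. Lists that were higher in both controls included those of capillary cells (5364, 4263, 4863 and 4414 CPM), arterial cells (2326, 1052, 2344 and 1507) and lymphatic cells (464, 242, 544 and 201). So did those of dendritic cells (1566, 478, 1725 and 583), monocytes and macrophages (366, 172, 265 and 187) and B cells (275, 188, 327 and 224). Lists higher in both PD libraries included the venous list itself (3612, 5230, 3829 and 5408 CPM) and the fibroblast list (151, 236, 167 and 308). Of the 13 dendritic markers 5, 6, 5 and 4 were detected, and Flt3, Cd209a, Clec9a, Xcr1, Cd207, Ccr7 and Ccl22 were at 0 in all 4 libraries. A list of 18 dissociation-response genes summed to 23133, 17315, 24578 and 18734 CPM, higher in the controls. The part of these in the venous differences was not tested.

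Endothelial cells whose sub-cluster carried the markers of another cell type were left out, a choice made after seeing the data. They numbered 29, 111, 29 and 63, and in cKO PD they held 24.5% of the library's Selp UMIs, 14.8% of Sele, 18.3% of Ackr1 and 38.5% of Vwf. The libraries differed in this: Selp in the left-out cells was at 19.8, 220, 93.5 and 2327 CPM, from 5, 97, 24 and 729 UMIs.

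Single venous cells often held several of the venous genes. All of Sele, Selp and Ackr1 were detected in 9 of 52 venous cells of cHet control (17.3%), 24 of 53 of cHet PD (45.3%), 21 of 146 of cKO control (14.4%) and 37 of 100 of cKO PD (37%). None of the 3 was detected in 26.9%, 20.8%, 32.9% and 23% of the cells. The shares with all 3 were higher in both PD libraries despite their lower depth.

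Across 38 units, each a cell class or endothelial subtype in 1 library, the patterns of Sele and Selp were most like each other and those of Tacr1, the substance P receptor, and Meox1, a homeobox gene. The Pearson r of log2(CPM + 10) was 0.935 between Sele and Selp, 0.943 and 0.842 of Tacr1 with Sele and with Selp, and 0.890 and 0.881 of Meox1, among 12840 genes considered. Ackr1 was most like Sele (0.869), Tacr1 (0.867) and its overlapping neighbour Cadm3 (0.799). Lrg1 was most like the nucleoside enzyme gene Upp1 (0.801), Selp (0.780) and Sele (0.756). Pecam1 stood nearest to Cyyr1 (0.975), She (0.974) and Podxl (0.968), Vwf to Enpp6 (0.929), Mmrn2 (0.908) and Clec14a (0.902), and Icam1 more loosely to Nfat5 (0.755), Sbno2 (0.753) and Rell1 (0.751). These are descriptions, since the units share 4 libraries and their depth.

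Other genes of the same processes were counted from lists in all endothelial cells. Of 26 further adhesion and transmigration genes, 4 of 21 measured were called higher and 0 lower in cHet PD: the junction genes Cdh5 (1816 against 789 CPM, 2.30-fold) and F11r (520 against 226, 2.30-fold), the adhesion molecule Mcam (633 against 135, 4.68-fold) and Alcam (44.3 against 7.69, 5.76-fold). These counts stand beside 9.45% of all tested genes called higher and 5.47% lower in cHet, and 5.46% and 8.23% in cKO. In cKO PD 4 of 20 were called higher and 0 lower, with Mcam (638 against 170 CPM, 3.76-fold), F11r (2.84-fold), Podxl (1192 against 545, 2.19-fold) and Cdh5 (2.05-fold). Their medians of -0.01 and 0.11 lay near those of all genes, 0.14 and -0.01. Vcam1, the ligand of alpha4 integrins, named here after its values were seen, differed between genotypes in venous cells: 542 against 228 CPM in cHet (2.38-fold, called) and 247 against 297 CPM in cKO (0.833-fold, not called), a difference that was not tested.

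Cytokine-induced genes of the NF-kB type were called higher in 12 of 22 measured and lower in 0 in cHet PD (9.45% and 5.47% of all tested genes), with a median log2 difference of 1.08. The largest were Ccl2 (317 against 26.1 CPM, 12.1-fold), Il6 (854 against 73.8, 11.6-fold), Cxcl9 (259 against 24.6, 10.5-fold) and Csf3 (56.1 against 6.15, 9.13-fold), which encode chemokines and cytokines for leukocytes. In cKO PD 6 of 19 were called higher and 1 lower (5.46% and 8.23% of all tested genes), with a median of 0.31, led by Ccl2 (146 against 13.7 CPM, 10.6-fold), Il6 (618 against 140, 4.41-fold), Cxcl2 (110 against 34.2, 3.22-fold) and Tnfaip3 (410 against 152, 2.696-fold), while the chemokine gene Cx3cl1 was lower (20.2 against 56.3 CPM). Between the PD libraries 0 of 22 were called higher in cKO and 3 lower (0.704% and 2.09% of all tested genes), namely Cxcl9 (16.5 against 259 CPM), Cxcl10 (311 against 1260) and Ccl2 (146 against 317). In venous cells the list gave 6 higher and 1 lower of 10 in cHet PD (9.33% and 14.8% of all tested genes). It gave 4 and 3 of 16 in cKO PD (4.68% and 10.5%). Between the PD libraries 0 of 10 were called either way in venous cells. The cluster led by Ifit1 and Cd36 held 110 of 655 endothelial cells in cHet PD and 17 of 353 in cKO PD. That led by Akap12 and Rsad2 held 99 and 25. Their part in the values over all endothelium was not tested.

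Genes for the Weibel-Palade granules and their partners were called higher in 2 and lower in 1 of 10 measured in each genotype, beside 9.45% and 5.47% of all tested genes in cHet and 5.46% and 8.23% in cKO. The vessel-destabilising factor Angpt2 was higher in both, at 198 against 24.6 CPM in cHet (8.05-fold) and 88.6 against 14.5 CPM in cKO (6.13-fold). Vwf was not higher over the same cells. Venous cells, in which Vwf was level, were however a smaller share of endothelium in PD, and their part in this contrast was not tested. The other gene called higher was Cd63, of granule membranes, in cHet (241 against 98.4 CPM, 2.45-fold) and Igfbp7 in cKO (9413 against 4498 CPM, 2.09-fold). Clu was lower in both, at 70.2 against 398 and 192 against 446 CPM. A list of genes for selectin ligands, their glycans and high endothelial venules gave 0 higher and 3 lower of 8 in cHet and 2 higher and 0 lower of 6 in cKO. Those lower in cHet were the sialyltransferase gene St3gal6 (103 against 235 CPM), the lysophospholipase gene Enpp2 (62.1 against 137) and the chemokine gene Ccl21a (63.7 against 275), and those higher in cKO were the glycosyltransferase gene B3gnt3 (162 against 72.3 CPM, 2.24-fold) and the sialomucin gene Podxl, given above. Of 12 genes for the integrins and other partners that leukocytes carry, 2 had enough UMIs in cHet and 1 in cKO, and 1 was called higher in cHet, the collagen-binding integrin gene Itga2 (48.0 against 10.8 CPM, 4.46-fold), which vessels also express. The dissociation list, of genes that respond to tissue digestion, was lower by its median, at -0.61 in cHet and -0.45 in cKO. Of its 18 genes, 3 were called higher and 5 lower in cHet, and 3 and 3 in cKO, beside the shares of all genes given above. Their sum over all endothelial cells was 24784, 21365, 23514.5 and 24416 CPM, so in cKO the sum was not lower in PD.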

How the data were processed

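The deposited matrices held UMI counts per gene and cell barcode, which per the submitters' processing notes came from fastp, then STARsolo 2.7.10a, on mm10. The labels name both BD Rhapsody capture and 10x Genomics, and the protocol describes BD Rhapsody. Cells with at least 200 genes and at most 20% mitochondrial UMIs were kept. No doublet caller was run. Cells were clustered with scanpy 1.11.5 (2000 variable genes without the 9 members, 30 components, 15 neighbours, Leiden resolution 1), and endothelial cells were clustered again (1500 genes, 20 components). A cluster was named when at least 3 markers of a type stood among its top 50 genes and 1 among its top 10, so subtypes are rebuilt and not the authors'. UMIs were summed per class and library and given as CPM with exact Poisson intervals. Ratios carry exact conditional binomial intervals, and shares of cells carry Clopper-Pearson intervals. With 1 library per group no test of conditions was made. Classes with under 40 cells, and subtypes with under 20, entered no comparison. The self-test ran on simulated counts. Positions and overlaps come from GENCODE M21 (mm10), and promoters from RefSeq, which matched 6 of the 9 members. Genes of other lists were eligible to be named where called over all endothelium, up to the 4 largest in each direction, and the 3 most alike genes by Pearson r were named for each member. The members and lists were chosen with earlier results of these data known. Alternatives changed the scaling (edgeR 4.0.16 TMM), the CPM added, depth, filters and clustering. The clustering and thinning used fixed seeds. One leading gene of an unnamed endothelial cluster is not reported here.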

Additional observations from a re-analysis of the deposited data

How the results depend on the processing

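No paired analysis was possible because no group had more than 1 library, and for the same reason no replicate could be left out. In venous cells, 7 of 43 comparisons under an alternative called other members than reported. In cHet PD against control, members called lower, 1 as reported, became 0 on counts thinned to 1000 UMIs, where Ackr1 and Lrg1 had too few UMIs for a call, and 2 over Nr2f2-holding cells, where Vwf was gained and Sele among the higher was lost. Icam1 was gained as higher in cHet with a common UMI floor and with the members kept in the clustering, and in cKO when thinned and without cells holding Ptprc, Krt5, Krt14 or Col1a1. Members higher in cKO control than in cHet control, 0 as reported, became 1 (Ackr1) with at most 10% mitochondrial UMIs. Over the alternatives that gave a value, the venous log2 difference of PD from control in cHet and in cKO ran from 0.13 to 1.73 and from 1.499 to 4.03 for Sele, 1.08 to 2.48 and 1.08 to 3.39 for Selp, 1.80 to 3.99 and 1.34 to 3.51 for Ackr1, 0.25 to 1.07 and 0.28 to 1.31 for Icam1, -2.80 to -1.04 and -1.99 to -1.21 for Lrg1, and -1.08 to 0.32 and -0.56 to 0.69 for Vwf.

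Over all endothelium 18 of 36 such comparisons called other members. In cHet PD against control, members called higher were 1 as reported, 2 with TMM, 2 with a common UMI floor, 3 without cells holding Ptprc, Krt5, Krt14 or Col1a1, 2 at resolution 2 over all cells and 2 with mixed sub-clusters kept in. Selp was gained under each of these alternatives, and also when thinned, where Ackr1 was lost. Sele was gained without cells holding Ptprc, Krt5, Krt14 or Col1a1. Members called lower there were 2 as reported, 1 with TMM, 0 thinned, 1 with a common floor, 1 with the stricter mitochondrial filter, 1 without those cells, 0 at resolution 2 and 1 with mixed sub-clusters. In cKO PD against control, 1 higher as reported became 3 thinned, 3 without those cells and 2 with mixed sub-clusters. Selp was gained under each of these alternatives. In the same comparison 1 lower became 2 with 1 CPM added and 0 at resolution 2. In cKO PD against cHet PD, 2 higher became 1 thinned, 1 without those cells and 0 at resolution 2, and 0 lower became 1 at resolution 2. In the control pair, 0 higher became 1 thinned and 2 with the stricter mitochondrial filter.

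Of all single-member log2 differences, called or not, 24 of 221 over all endothelium and 31 of 279 in venous cells had the other sign under an alternative. Among differences called as reported, 3 turned: Ackr1 in cHet PD against control when thinned (log2 -0.14), and Sele (-1.24) and Lrg1 (-0.15) in cKO PD against cHet PD at resolution 2. Among those not called, Selp (0.18 as reported, -3.20) and Ackr1 (0.13, -2.35) in cKO PD against cHet PD turned at resolution 2 as well. At that resolution 0, 2, 4 and 0 of the venous cells lay in clusters named endothelial, so whether venous cells counted as endothelium depended on the clustering resolution. The cause of these turns was not tested. Sub-clustering at resolution 0.5 left 3 and 4 PD venous cells, and the venous set without cells holding Ptprc, Krt5, Krt14 or Col1a1 left 17 in cHet control, so neither gave a PD comparison with those libraries. The alternatives in venous cells, the Nr2f2 and Rgs5 sets and the mixed sub-clusters were chosen after seeing the data. Depth limits Icam2, Madcam1, the capillary selectins, and Lrg1 and Ackr1 on thinned counts.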
